A study of Arabidopsis thaliana with 4 samples.

Results

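The signalling protein kinases that could be read by symbol in these seedlings came down to a pair of mitogen-activated protein kinase (MAP kinase) genes, ATMPK8 (locus AT1G18150) and ATMPK13 (locus AT1G07880). Members were chosen by name alone: a probe set annotated to 1 gene whose symbol, after an optional AT, starts with CPK, CIPK, CRK, MPK, MKK, MAPKKK, SNRK, WAK, WAKL, PERK, RLK, ASK or CKL and then a digit. Of 13356 named genes, 2 met this rule, each with 1 probe set. The reference gene table holds 184 genes with such symbols, 20 of them MPK genes, and the annotation used here names a probe set for ATMPK8 and ATMPK13 alone. All other families, from the calcium-dependent kinases (CPK) to the wall-associated kinases (WAK), were not analysed here, so no comparison between families was possible.

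RNA came from whole 2-week-old Arabidopsis thaliana seedlings of 4 genotypes, each measured on 1 Affymetrix ATH1 array. NO is the Nössen wild type, duf761-1 a mutant of the DUF761-1 gene in Nössen, Col-0 the Columbia wild type and OE6 a transgenic Columbia line that overexpresses DUF761-1. All were grown on 1/2 MS medium with 2% sucrose at 22 °C, with 16 h of light (100 µmol m-2 s-1) and 8 h of darkness a day, and the labels name no other treatment. DUF761-1 is named for a domain of unknown function. The labels give it no locus, so its level was not read to check the genotypes. They also leave out the promoter of the transgene and the number of seedlings pooled, and name a single mutant line and a single overexpressor line. No genotype has a replicate array, and the arrays that share a background are of different genotypes and not replicates of each other. No test was run, and values are compared by size only.

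MAP kinases are the last step of a relay in which a MAP kinase kinase kinase activates a MAP kinase kinase, which in turn phosphorylates the MAP kinase on a conserved threonine and tyrosine. In Arabidopsis, MPK8 is known from wounding, where it is activated by MKK3 and by binding of calmodulin and limits the build-up of reactive oxygen species. MPK13 belongs to another MAP kinase group, is activated by MKK6 and is known for a role in lateral root formation. Both kinases are activated as proteins, by phosphorylation and for MPK8 also by calmodulin binding, which transcript levels do not show.

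Signals are linear MAS5 intensities in arbitrary units, which the authors' arrays carry scaled to a common trimmed mean of 500.05 to within rounding. A floor was set at a signal of 102, the 40th percentile of all non-control probe sets, since MAS5 values below it carry little information. Between 58.3% and 61.6% of the probe sets were above it on each array. RNA integrity was read from control genes that have separate 3′ and 5′ probe sets. The 3′ over 5′ ratio ranged from 0.754 to 0.887 for GAPDH and from 1.08 to 1.27 for ubiquitin. For actin it was 0.279 and 0.267 on the Nössen arrays NO and duf761-1 but 1.61 and 2.06 on the Columbia arrays Col-0 and OE6, and so differed between the backgrounds. Markers of both shoot and root were present in every genotype. The light-harvesting gene LHCB4.1 and the Calvin cycle gene SBPASE, the 2 of 6 shoot markers with a named probe set, summed to 33551 and 32086 on the Nössen arrays and to 26525 and 26367 on the Columbia arrays. Of 6 root markers, PYK10, EXPA7 and EXPA18 could be found, and nearly all of their sum of 16282 to 16998 was PYK10. Between the wild types, the root hair expansins moved apart. EXPA18 had 426 on NO and 188 on Col-0. EXPA7 was below the floor on NO, at 79.1, and had 155 on Col-0. On duf761-1 and OE6, EXPA18 had 256 and 290, so the backgrounds overlapped for it, and EXPA7 had 145 and 196. Against its own wild type, the mutant had an EXPA18 log2 ratio of -0.74 and the overexpressor one of 0.62. Of all genes above the floor, 97.2% and 95.5% respectively were closer to 0. No gene of the trichome, guard cell and defence marker lists could be found by name.

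ATMPK8 was transcribed above the floor in all 4 genotypes. Its signal was 310 on NO and 354 on duf761-1, against 549 on Col-0 and 501 on OE6, which is 3.03 to 5.37 times the floor. Both Columbia arrays were higher than both Nössen arrays, and within each background the wild type and its line were close. In bulk seedlings, a higher level per cell and more cells that express the gene cannot be told apart. The range over the 4 arrays was 0.83 on the log2 scale, and 69.7% of the 7994 genes that passed the floor on 1 array or more had a smaller range.

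**Figure D1:**
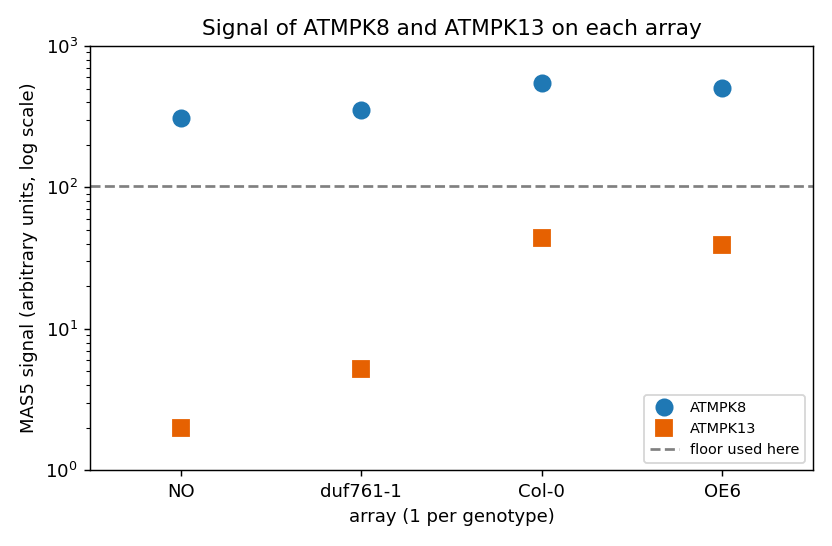
Signal of ATMPK8 (circles) and ATMPK13 (squares) on each of the 4 arrays, on a log axis in arbitrary MAS5 units, with the floor of 102 as a dashed line. ATMPK8 lay between 310 and 549, above the floor on every array, and ATMPK13 between 1.99 and 44.1, below it on every array.

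The first question is how the mutant seedlings differ from their own wild type. ATMPK8 was 1.14-fold higher on the duf761-1 array, a log2 ratio of 0.19. It was thus within 2-fold, as were nearly all genes: 0.888% of the 7994 genes were at least 2-fold apart in this comparison. Among these genes, 56.8% had a ratio closer to 0 than ATMPK8. The only yardstick of error in these data is the scatter between 2 probe sets of the same gene on the same arrays, taken over 57 genes. Its SD on the log2 scale was 0.29 for duf761-1 over NO, more than the ratio of ATMPK8. It covers probe noise and leaves out differences between plants and labelling reactions.

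The second question is how the seedlings of the overexpressor line differ from theirs. ATMPK8 had a log2 ratio of -0.13, a Col-0 signal 1.096-fold that of OE6, against a probe set SD of 0.24. Of all genes above the floor, 0.951% were at least 2-fold apart in this comparison, and 41.2% were closer to 0 than ATMPK8. Mutant and overexpressor thus differed from their own wild types in opposite directions for ATMPK8, each by less than the scatter between probe sets. Whether the ratios differ from each other was not tested.

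For ATMPK8, the difference between the wild types was larger than that of either line from its own wild type. ATMPK8 was 1.77-fold higher on Col-0 than on NO, a log2 ratio of 0.83, with a probe set SD of 0.43 for this pair of arrays. This is short of 2-fold. Of the 7994 genes, 14.1% were at least 2-fold apart between the wild types and 9.02% at least 2-fold higher on Col-0. Among them 87.5% had a lower ratio than ATMPK8, and 80.1% were closer to 0.

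**Figure D2:**
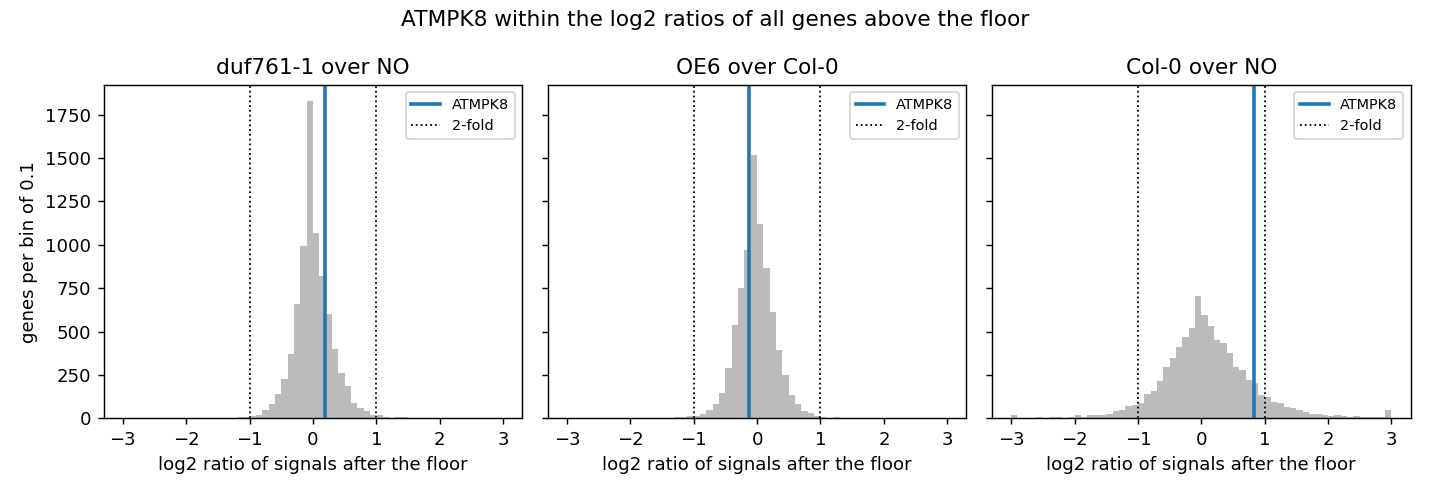
Number of genes (of 7994 above the floor) per bin of 0.1 in the log2 ratio of signals, in 3 panels (mutant over NO, overexpressor over Col-0, and Col-0 over NO), with genes beyond 3 on either side placed in the end bins. The blue line is ATMPK8, at 0.19, -0.13 and 0.83, inside the dotted 2-fold lines in all 3 panels and nearest to one in Col-0 over NO.

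The order of ATMPK8 signals was NO, duf761-1, OE6 and Col-0, from lowest to highest. The step from NO to duf761-1 (0.19) and the step from OE6 to Col-0 (0.13, as -0.13 for OE6 over Col-0) were below the probe set SD of their pair. The step across the backgrounds, from duf761-1 to OE6, was 0.50 (1.42-fold), against a probe set SD of 0.40 for that pair. The 2 backgrounds therefore did not overlap for ATMPK8. That is common in these data: both Columbia arrays were above both Nössen arrays for 36.5% of genes, and a gap of at least the size seen for ATMPK8, with Columbia higher, was found for 13.1%. At 2-fold or more, the gap was met by 7.79% of genes in either direction, and ATMPK8 was not among them. Beside this result, the actin ratio given above and markers of the shoot and of cold response also separated the backgrounds. With the authors' scaling, both shoot markers were lower on both Columbia arrays, as were 29.8% of all genes. The log2 gap was -0.56 for SBPASE and -0.12 for LHCB4.1, and 52.2% of genes had a gap at least as large as that of LHCB4.1. These gaps were not computed with other scalings. Of 5 cold markers, 4 had a named probe set. COR47 and LTI30 were above the floor on all arrays and higher on both Columbia arrays, while COR15A and COR15B were below it on both Nössen arrays and so passed only where they were high. COR47 had signals of 2340 and 2961 on NO and duf761-1, against 5239 and 5337 on Col-0 and OE6. In the same order, LTI30 had 819 and 1260 against 2399 and 2391. The marker lists were chosen with earlier results of these data known, so these values are description only. The part of these values in the ATMPK8 difference was not tested. ATH1 probes were designed on Columbia sequence, and how well those for ATMPK8 match the Nössen transcript was not tested.

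Whether the ATMPK8 difference between wild types passed 2-fold rested on the scaling, while its size relative to the median of all genes changed less. When arrays were scaled on the 18 hybridisation spike-in probe sets, ATMPK8 was 2.35-fold higher on Col-0 (log2 ratio 1.23), past 2-fold. That scaling moved the median of all genes by 0.37, and relative to the median ATMPK8 had a ratio of 0.83 there and 0.79 with the authors' scaling. With arrays scaled to a common median, which moved it by -0.12, the ratio was 0.66, or 0.74 relative to the median. With the floor added to each signal, in place of raising values to it, the ratio was also 0.66, or 0.61 relative to the median.

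ATMPK13 was at or below the floor on all 4 arrays, so it has no ratio in any comparison. Its signal was 1.99 on NO and 5.18 on duf761-1, against 44.1 on Col-0 and 39.0 on OE6. Both Columbia values were above both Nössen values, but below the floor such an order carries little information. Ratios of MAS5 signals this low are not reliable, and no fold is given. Of the 5362 named genes at or below the floor on all arrays, 23.2% had both Columbia values above both Nössen values and 15.4% had them below.

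Partner genes were listed for the families of the rule, including families with no named member here, such as WAK and SNRK. A listed gene need not be a partner of ATMPK8 or ATMPK13. The 10 lists held receptors, calcium sensors, hormone and energy signalling partners, substrates and ubiquitin ligase subunits. Of their 201 symbols, 18 genes could be found by name on the arrays, 14 of these passed the floor on 1 array or more, and 4 lists had no gene that could be found. For duf761-1 over NO, 0 of the 14 were at least 2-fold apart (0.888% of all genes). Their median log2 ratio was 0.02, where that of all genes was 0.00. For OE6 over Col-0, 1 of the 14 was at least 2-fold higher and 0 were lower (0.475% of all genes in either direction), and the median was 0.07 against -0.01. For Col-0 over NO, 1 of the 14 was higher and 2 were lower, where 9.02% and 5.09% of all genes were, and the median was -0.19 against 0.04. These were description only, and with so few genes above the floor a share says little about a list.

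Calcium sensors come closest to ATMPK8, since MPK8 binds calmodulin. No gene for calmodulin itself was among those found by name, and binding of MPK8 to the calmodulin-like proteins below was not tested. Of the calmodulin-like genes, which encode small calcium-binding proteins, 7 could be found and 5 passed the floor. CML41 followed the order of the backgrounds as ATMPK8 did, with signals of 104 on NO and 126 on duf761-1, against 227 on Col-0 and 293 on OE6. Its log2 ratio for Col-0 over NO was 1.13, though 0.00 with a floor at the 60th percentile, a signal of 288. CML23 was below the floor on both Nössen arrays, at 13.0 and 50.0, and reached 144 on Col-0 and 349 on OE6, a log2 ratio of 1.27 for OE6 over Col-0 that fell to 0.28 with the higher floor. CML42 went the other way, with 465 on NO and 476 on duf761-1, against 326 on Col-0 and 340 on OE6. The calmodulin-like genes therefore did not share 1 direction between the backgrounds.

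**Figure D3:**
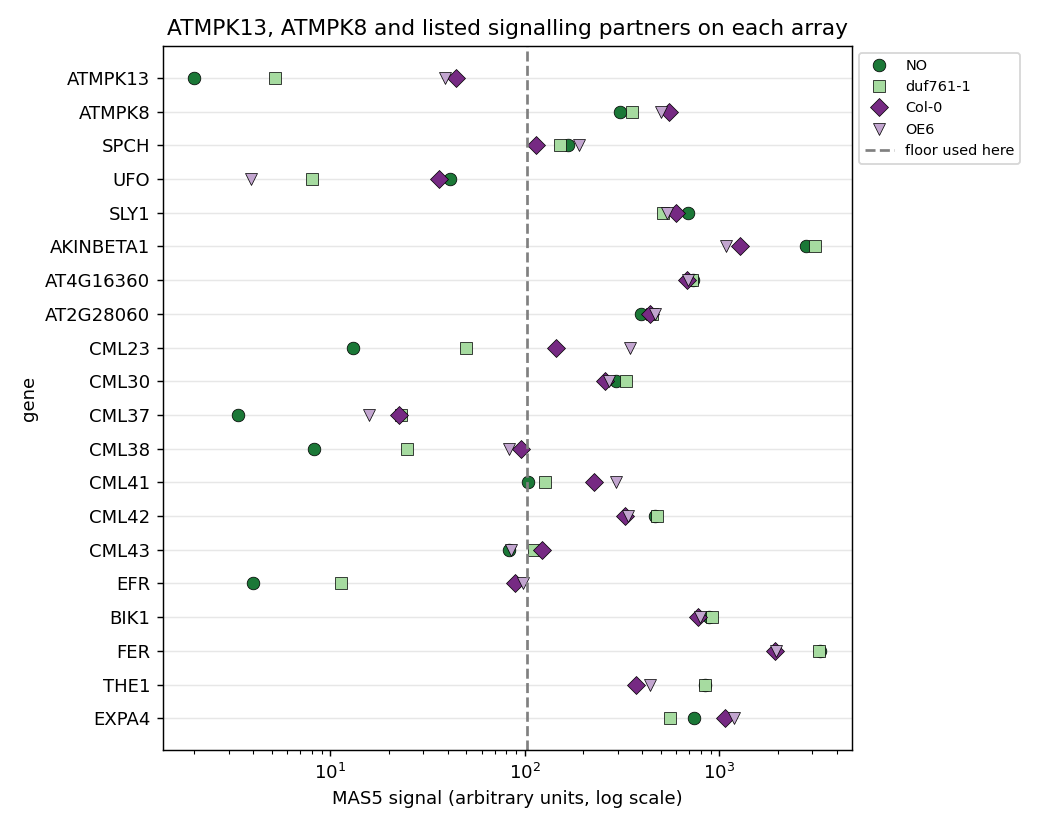
Signal on each array (log axis, arbitrary MAS5 units) of ATMPK13, ATMPK8 and the 18 listed partner genes with a named probe set, with the floor of 102 as a dashed line. Symbols mark the 4 arrays; Columbia arrays (purple) lie to the right of Nössen arrays (green) for ATMPK8 at 501 and 549 against 310 and 354, and to the left for AKINBETA1, FER and THE1.

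At the cell surface, where many kinase pathways begin, 3 of 4 named receptor genes and cytoplasmic kinases were above the floor. All 3 had lower signals on both Columbia arrays, the opposite of ATMPK8, as did 29.8% of all genes. THE1 encodes a receptor kinase that senses cell wall integrity. Its signal was 844 on NO and 842 on duf761-1, against 371 on Col-0 and 441 on OE6, a log2 ratio of -1.19 for Col-0 over NO. FER, the receptor kinase FERONIA, had a ratio of -0.77 and BIK1, a kinase that acts below immune receptors, one of -0.18. BIK1 had ratios between -0.35 and 0.23 over the settings run, so its direction turned with the scaling. The ratio of THE1 was -0.78 with spike-in scaling, within 2-fold. EFR, the receptor for a bacterial elongation factor, was below the floor on all arrays, at 3.99, 11.3, 89.3 and 97.8 in the order NO, duf761-1, Col-0 and OE6.

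Among genes listed for the SNRK family, the regulatory beta subunits of the energy-sensing kinase SnRK1 differed among themselves. AKINBETA1 had a signal of 2793 on NO and 3114 on duf761-1, against 1278 on Col-0 and 1080 on OE6. Its log2 ratio for Col-0 over NO was -1.13 (-0.72 with spike-in scaling), and among the 14 partner genes it alone had both Columbia arrays at least 2-fold from both Nössen arrays, lower in this case, where 2.94% of all genes were lower. The other beta subunits, AT4G16360 and AT2G28060, had ratios of -0.10 and 0.14, whose signs turned with spike-in and median scaling respectively. SPCH, a stomatal transcription factor and MAP kinase substrate, had 167 and 152 on NO and duf761-1 and 114 and 191 on Col-0 and OE6, so its backgrounds overlapped. Its log2 ratio for OE6 over Col-0 was 0.73, against a probe set SD of 0.24, and 98.7% of genes had a lower one. These signals were only 1.12 to 1.86 times the floor. With the floor added to each signal, in place of raising values to it, the ratio was 0.43. EXPA4, a wall-loosening expansin listed as a partner of WAK proteins, had a ratio of 0.53 for Col-0 over NO. SLY1, an F-box subunit of a ubiquitin ligase in gibberellin signalling, had one of -0.19 (0.22 at most over the settings run). For duf761-1 over NO, the ratio was -0.40 for EXPA4 and -0.42 for SLY1, against a probe set SD of 0.29. These were the largest in size among the 14 partner genes in that comparison. Of all genes above the floor, 84.0% had a ratio smaller in size than EXPA4 and 85.7% one smaller than SLY1. UFO, a floral F-box gene, was below the floor on all 4 arrays. SLY1 and UFO were listed as partners of SKP1-like ASK proteins.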

How the data were processed

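The deposited table gives 1 linear signal intensity for each probe set and array. The submitters' processing notes name MAS5 as the tool, and its version is not given in the sources. The labels state 6 µg of total RNA as the input to biotin labelling. The table holds 22810 probe sets, of which 64 are array controls. Of the others, 13513 carry 1 gene in the annotation table, 503 carry several and were not named, and 8730 are unnamed here. Symbols were brought up to date with a RefSeq gene table (assembly TAIR10.1), which held 13286 of the 13356 genes. It served for names only, as the files name no build. No sequence is shown.

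Values under the floor of 102 (40th percentile) were raised to it, log2 was taken, and a gene was represented by its probe set with the highest mean. Genes at least 2-fold apart were counted over all 7994 genes above the floor on at least 1 array. Each genotype has 1 array, so no p-value or standard error exists, and their number limits the precision. Members and lists were chosen with earlier results of these data known. Both members were named, and from the partner lists each measured gene past 2-fold and the 2 furthest of each list. EFR, UFO, CML42, BIK1 and AT4G16360 were added after their values were seen. A partner symbol was matched to a gene symbol, or else to a synonym held by 1 gene. Counting, medians and the comparison of backgrounds were tested on simulated data. The noise there was below every probe set SD given above. The planted changes were 3-fold, in genes further above the floor on NO than ATMPK8. That run therefore checks the counting and says little about a difference of the size seen for ATMPK8. Python 3.11.15, numpy 2.4.6, pandas 2.3.3 and statsmodels 0.14.6 (for loess) were used.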

Additional observations from a re-analysis of the deposited data

How the results depend on the processing

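No paired analysis was possible because each genotype has 1 array, and leaving out an array would leave a comparison without one of its sides. A total of 11 settings was run, which also covered quantile normalization and loess within pairs (span 0.4). Further settings averaged over the probe sets of each gene or dropped those with a suffix for cross-hybridisation. The log2 ratio of ATMPK8 ran from 0.14 to 0.25 for duf761-1 over NO and from -0.22 to -0.09 for OE6 over Col-0. For Col-0 over NO it ran from 0.66 to 1.23, and each ratio kept its sign. Several settings could not change these values. ATMPK8 has 1 probe set, so averaging and dropping left its ratios as they were. Its signals were above the floors at the 25th and 60th percentile, so these floors and leaving out the floor also changed nothing for ATMPK8. The gap between its backgrounds, for which loess was not used, ran from 0.33 to 0.77. Spike-in scaling made it 1 member at least 2-fold apart between the wild types. Without a floor ATMPK13 entered and alone was 2-fold apart, which gave 1 member for duf761-1 over NO, 1 for Col-0 over NO and 1 between the backgrounds, and moved the median of the members to 0.78 and 2.65 in the first and second of these. These values rest on signals of 1.99 and 5.18 on the Nössen arrays and are not measurements of a fold. With the floor of 102, no member was 3-fold apart in any comparison. Symbols as the platform annotation gives them gave the same members. Leaving out ASK symbols could not change the members, since neither has an ASK symbol. Counting synonyms as symbols, chosen after seeing the data, added 5 genes and moved the median for Col-0 over NO to 0.65.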

Other observations

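The symbol ASK is shared by kinases and by SKP1-like proteins, which are adaptor subunits of SCF ubiquitin ligases and not kinases. Through synonyms in the reference gene table, 4 genes on the arrays carry an ASK name, and all 4 are SKP1-like. SK18 was above the floor on all arrays, with a signal of 218 on NO and 227 on duf761-1, against 301 on Col-0 and 282 on OE6. Its log2 ratio was 0.06 for the mutant and -0.09 for the overexpressor against their wild types, and 0.47 for Col-0 over NO, so its arrays came in the same order as those of ATMPK8, and a gap between the backgrounds of at least its size, with Columbia higher, was found for 19.5% of genes. SK15, SK16 and SK19 were below the floor on every array, at signals between 1.05 and 11.6. The fifth gene with a matching synonym, AT5G36737, carries a synonym with a clone-like suffix in place of a kinase name and was also below the floor, at 7.56 to 18.6.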
